A study of Saccharomyces cerevisiae with 20 samples.

Results

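The 55 genes described here encode ribosome biogenesis factors of the budding yeast Saccharomyces cerevisiae. They were chosen by name, as the nucleolar NOP, NOC, UTP, DBP and RRP genes and related ribosome assembly genes, and no measured value entered the rule. The choice was made with earlier results of these data known. All 55 were found among the 6722 genes that were listed for every library. The study asked which genes depend on 4 chromatin-acting proteins when glucose runs out. It sequenced poly-A selected RNA from W303 RAD5+, a common laboratory strain, as wild type or with an antibiotic resistance marker in place of TUP1, SDS3, XBP1 or ISW2 (Δtup1, Δsds3, Δxbp1 and Δisw2). Cultures grew in YPD, a rich glucose medium, at 30 °C and were harvested whole at diauxic shift, when glucose is exhausted, or in stationary phase, after 3 days. Each of the 10 groups had 2 libraries, called A and B here, and the same 2 wild type libraries served all 4 deletions of a phase. In stationary phase, library B of each deletion carried another strain number than library A, whereas both wild type libraries carried the same one. The study calls the libraries of wild type, Δtup1, Δsds3 and Δxbp1 biological replicates, and the labels do not say which cultures they came from. The p-values below measure the spread between these libraries.

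Ribosome assembly starts in the nucleolus, where RNA polymerase I makes a long precursor of the ribosomal RNAs. Small nucleolar ribonucleoproteins (snoRNPs) modify this precursor, the small subunit processome folds and cuts the stretch that becomes the 40S subunit, and a series of helicases, GTPases and scaffold proteins builds the 60S subunit. The genes for these factors are known in yeast to be transcribed together, strongly in growing cells and weakly in starved ones. Many of their promoters carry a PAC element, bound by the repressors Dot6 and Tod6, and an RRPE element, bound by the repressor Stb3. Dot6, Tod6 and Stb3 recruit Rpd3L, a histone deacetylase complex that contains Sds3. Tup1 is a corepressor that works with Ssn6, Xbp1 is a DNA-binding repressor of starved and stressed cells, and Isw2 is the ATPase of a nucleosome remodeler.

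Most promoters of the 55 genes held the letters of both elements, which are known from promoters of such genes. The window searched ran from 250 bases before the start codon to 50 bases from its first base on. The PAC core GATGAG, on either strand, was found in 53 of 55 windows, against 20.4% of 6001 windows of protein-coding genes. The RRPE core AAAATTTT, which reads the same on both strands, was found in 42 of 55 windows, against 9.03% of all windows. Both cores were present in 41 of the 55 windows (74.5%) and in 4.38% of all windows. The windows of 68 other ribosome assembly factors were alike, with the PAC core in 88.2%, the RRPE core in 79.4% and both in 70.6%. The core CTCGA of the element bound by Xbp1, on either strand, was found in 7 of 55 windows and in 25.9% of all windows. Upstream of the start codon the PAC core lay at a median distance of 124.5 bases and the RRPE core at 141.5 bases. In all 41 windows with both cores they lay within 50 bases of each other, and in 32 of them the RRPE core was the farther from the start codon, by 10 to 44 bases. A match of letters is a description and not a binding site.

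**Figure D1:**
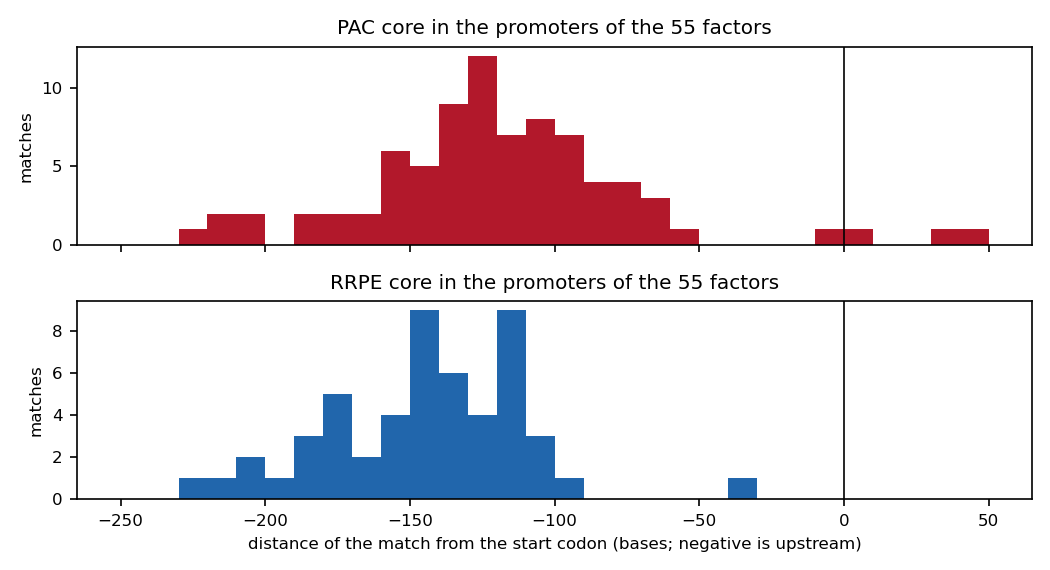
Number of matches to the PAC core (upper panel) and the RRPE core (lower panel) in bins of 10 bases, plotted against distance from the start codon in bases, over the windows of the 55 factors. Both peak between 100 and 150 bases upstream, with median distances of 124.5 and 141.5 bases.

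5 of these windows are printed because the results below turn on their genes. UTP13 (YLR222C, chrXII:581722-582021, minus strand) and NOP58 (YOR310C, chrXV:898311-898610, minus strand) hold both cores and were among the genes that rose most. NOP13 (YNL175C, chrXIV:308563-308862, minus strand) holds the PAC core alone. UTP22 (YGR090W, chrVII:662108-662407, plus strand) is the gene with neither. NOP16 (YER002W, chrV:156553-156852, plus strand) holds the PAC core and, like NOP8, was lower in Δtup1 in stationary phase, unlike most members. Sequences are from RefSeq, assembly R64 (sacCer3), read 5′ to 3′ on the strand of the gene, and the capitals mark PAC and RRPE cores on either strand.
UTP13: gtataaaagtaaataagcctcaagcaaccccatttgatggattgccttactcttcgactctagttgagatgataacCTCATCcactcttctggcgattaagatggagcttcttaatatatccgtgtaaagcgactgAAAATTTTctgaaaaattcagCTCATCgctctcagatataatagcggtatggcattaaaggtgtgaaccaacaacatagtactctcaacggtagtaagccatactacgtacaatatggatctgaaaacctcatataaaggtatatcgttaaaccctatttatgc
NOP58: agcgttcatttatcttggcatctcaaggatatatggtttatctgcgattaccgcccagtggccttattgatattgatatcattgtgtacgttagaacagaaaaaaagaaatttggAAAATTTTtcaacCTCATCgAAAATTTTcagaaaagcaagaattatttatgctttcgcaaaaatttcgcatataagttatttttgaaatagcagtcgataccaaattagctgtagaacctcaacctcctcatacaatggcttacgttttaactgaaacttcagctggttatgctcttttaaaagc
NOP13: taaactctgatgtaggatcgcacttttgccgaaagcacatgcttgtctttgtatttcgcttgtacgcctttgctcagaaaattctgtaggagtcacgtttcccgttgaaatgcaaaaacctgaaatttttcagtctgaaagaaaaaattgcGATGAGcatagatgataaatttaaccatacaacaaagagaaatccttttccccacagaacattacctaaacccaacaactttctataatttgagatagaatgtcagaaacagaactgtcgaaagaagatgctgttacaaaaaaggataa
UTP22: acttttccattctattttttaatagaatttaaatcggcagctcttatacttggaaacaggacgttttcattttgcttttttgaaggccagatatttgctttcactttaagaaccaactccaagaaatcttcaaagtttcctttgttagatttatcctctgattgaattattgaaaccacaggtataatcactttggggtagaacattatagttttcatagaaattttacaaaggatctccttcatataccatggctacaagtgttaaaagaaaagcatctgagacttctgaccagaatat
NOP16: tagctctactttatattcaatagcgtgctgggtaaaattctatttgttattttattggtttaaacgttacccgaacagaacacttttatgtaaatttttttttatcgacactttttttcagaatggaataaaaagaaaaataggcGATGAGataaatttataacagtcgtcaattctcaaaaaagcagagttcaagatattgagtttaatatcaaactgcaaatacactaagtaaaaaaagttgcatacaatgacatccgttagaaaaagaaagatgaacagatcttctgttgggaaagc

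NOP1 was the only gene of the 55 with stretches of 37 bases found elsewhere in the genome (1.69% of them). NOG2 was the only one that overlaps another annotated gene, SNR191, a small nucleolar RNA gene in its intron, and whether the counting used strand is not given in the sources used here.

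The deleted genes were at 8 or fewer reads in their own deletions, against at least 90 reads in every other library. Depth was 20963633 to 32558227 reads on genes at diauxic shift. In stationary phase it was 9994448 to 28421881 in the A libraries and 2543155 to 4424289 in the B libraries, so the B libraries limited the precision of low genes there. Even so, the lowest count of any member in any library was 13 reads. The 2 Δsds3 libraries at diauxic shift stood far apart. They differed by at least 2-fold at 37.1% of genes and at 27 of the 55 members, whereas the replicate libraries of the other deletions did so at 1.95% to 5.0% of genes and the wild type libraries at diauxic shift at up to 6.72%. All values are relative to the other messenger RNA in a library, so a change in the total amount of messenger RNA per cell cannot be seen.

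Per length of coding sequence, the 55 factors were lowly expressed transcripts in starved wild type cells (the plot of levels by library). In RPKM, here reads scaled to the total on genes and to kilobases of coding sequence, their median was 16.6 and 13.4 in the wild type libraries A and B at diauxic shift, where the median of all genes was 46.0 and 39.4. In stationary phase their median was 18.8 and 13.0, and that of all genes 46.0 and 45.4. At diauxic shift 51 of 55 lay below the median gene, and in stationary phase 49 did. NOP16, a 60S assembly factor, was the highest in both phases, at 132 and 92.0 at diauxic shift and 631 and 782 in stationary phase. NOP1 (fibrillarin, the methyltransferase of box C/D snoRNPs) came next at diauxic shift, at 67.5 and 31.5. By the mean of both libraries UTP6, a UTP-B subunit, was lowest at diauxic shift (5.48 and 4.51), and UTP13, a subunit of the same complex, was lowest in stationary phase (3.64 and 2.95). NOP1 and GAR1 (61.4 and 36.7) overlapped at diauxic shift, as did UTP6 and UTP13 (7.73 and 4.02). Together the 55 genes took 0.143% to 0.209% of the reads of wild type at diauxic shift and 0.219% to 0.253% in stationary phase. In Δsds3 they took 0.762% and 0.773% in stationary phase, and there their median, 67.6 and 66.8, was near that of all genes, 69.7 and 74.2.

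**Figure D2:**
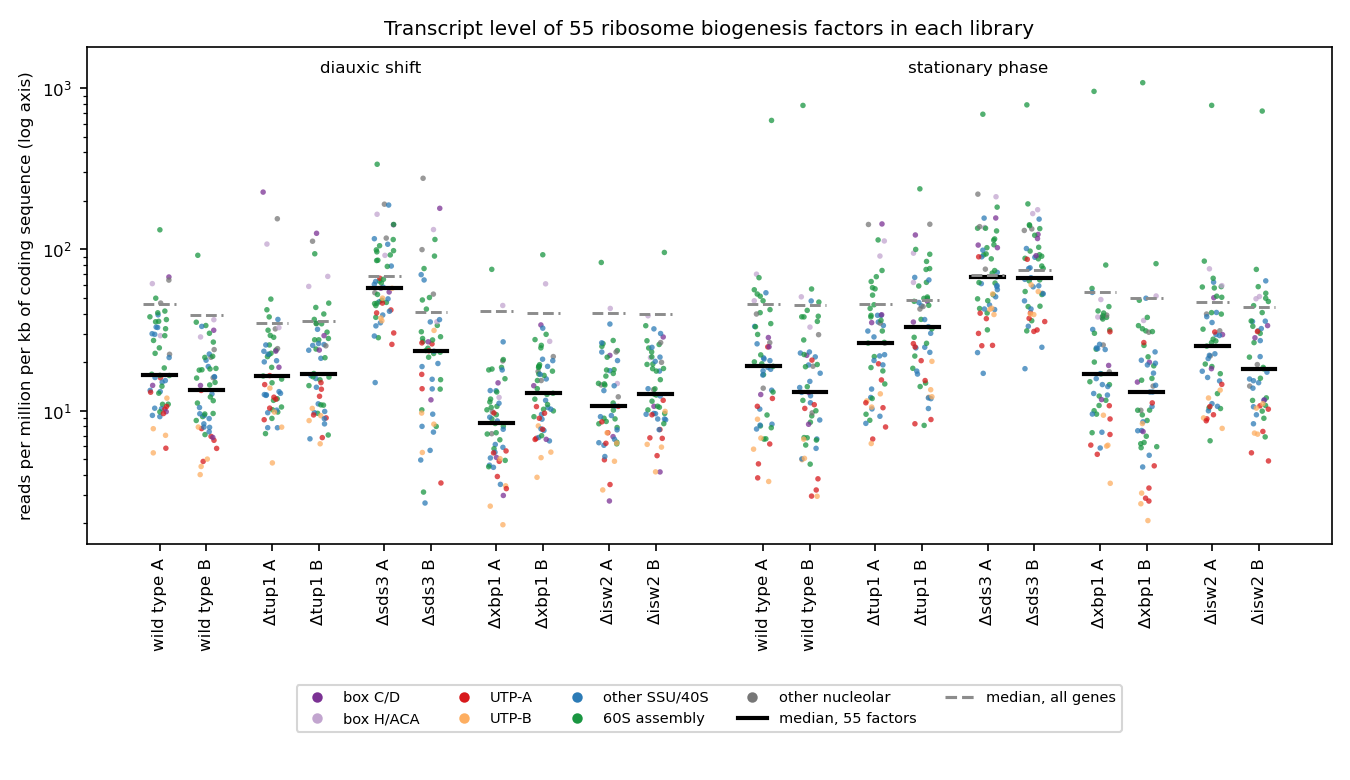
Transcript level of the 55 factors (points, coloured by role) in each of the 20 libraries, in RPKM on a log axis, with the median of the 55 (black bar) and of all genes (dashed bar). The median of the 55 lies well under that of all genes in wild type and near it in Δsds3 in stationary phase (67.6 and 66.8 against 69.7 and 74.2).

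The largest change was in Δsds3 in stationary phase. There 51 of 55 factors were higher than in wild type and 0 were lower, where higher and lower mean a limma adjusted p under 0.05 over all genes and a change of at least 1.5-fold. Of 6211 genes tested, 27.6% were higher and 25.4% lower. The median log2 fold change of the 55 was 1.48 (2.80-fold), that of all genes 0.00, and 40 factors rose at least 2-fold and 18 at least 4-fold. Members that act in every step of assembly rose. The values that follow are normalised read counts (reads divided by the size factor of the library), whose scale differs between comparisons, so that the wild type values do too.

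The listed box C/D snoRNP proteins, which guide ribose methylation, all rose in Δsds3. NOP58 (YOR310C), a core protein of the particle, had 1234 and 985 in libraries A and B of Δsds3 and 208 and 135 in wild type. NOP56 (YLR197W), its partner, had 1173 and 1240 against 406 and 210. NOP1 (YDL014W) had 1164 and 854 against 301 and 232. For all 3 genes both Δsds3 libraries lay above both wild type libraries, as for 52 of 55 factors and 41.3% of all genes tested. Their log2 fold changes were 2.71 ± 0.22 (SE, adjusted p = 5.35e-06), 2.04 ± 0.26 and 1.91 ± 0.20. The box H/ACA proteins, which guide pseudouridylation, rose less. CBF5 (YLR175W), the pseudouridine synthase, had 1499 and 1698 against 751 and 513, and GAR1 (YHR089C) had 990 and 764 against 467 and 336, with log2 fold changes of 1.36 and 1.13.

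All 6 listed genes of UTP-A, which joins the processome first, and all 4 listed genes of UTP-B rose in Δsds3. Their median log2 fold changes were 1.92 and 2.51. UTP13 had the highest fold change of the 55, with 787 and 679 normalised counts in Δsds3 and 96.2 and 77.4 in wild type. Its log2 fold change was 3.07 ± 0.20 (adjusted p = 1.37e-06). UTP15 (UTP-A) had 469 and 386 against 63.6 and 53.2. UTP10 (YJL109C), the longest UTP-A subunit, had 1014 and 1179 against 681 and 619 and rose least of these 6, by 0.75 ± 0.15 (adjusted p = 0.00167). Of the other 15 processome and 40S factors 14 rose, with a median of 1.26. Among them RRP12 (YPL012W), an export factor, had 1189 and 1105 against 323 and 198, a log2 fold change of 2.17. RRP9 (YPR137W), a U3 snoRNP protein, had 661 and 708 against 249 and 239. UTP22 (YGR090W), the gene with neither core, had 643 and 644 against 308 and 232, a log2 fold change of 1.26. RRP5 (YMR229C), needed for both subunits, had 1773 and 1746 against 1009 and 844. NOP14 (YDL148C) and the helicase ROK1 (YGL171W) rose by log2 0.98 and 1.39. UTP20 was the processome factor that was not called, at 963 and 956 against 825 and 701.

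Of the 22 factors of 60S assembly 20 rose in Δsds3, with a median log2 fold change of 1.48. NOC2 (YOR206W), which travels with pre-60S particles out of the nucleolus, had 774 and 820 normalised counts against 154 and 106. The GTPase NOG1 (YPL093W) had 1569 and 1331 against 350 and 176. NOP2 (YNL061W), a methyltransferase of the 25S ribosomal RNA, had 2565 and 2494 against 847 and 759. Their log2 fold changes were 2.63, 2.53 and 1.66. MAK21 (YDR060W), the partner of NOC2, rose by log2 1.74, NOP7 (YGR103W) by 1.13 and the helicase DBP3 (YGL078C) by 0.76. The other 2 of the 22 were RRP8 and NOP16. RRP8, a base methyltransferase of the 25S RNA, had 551 and 535 against 714 and 595. NOP16 had 3622 and 3844 against 4730 and 5819, a log2 difference of -0.49 ± 0.17 (adjusted p = 0.0242), which is under 1.5-fold. Among the remaining nucleolar proteins NOP13 (YNL175C) had 1267 and 1139 against 180 and 126, and NSR1 (YGR159C, yeast nucleolin) had 2070 and 1145 against 354 and 251. The helicase DBP2 (YNL112W), which also acts in mRNA decay and export, had 935 and 615 against 703 and 520 and was not called.

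The count for Δsds3 in stationary phase stayed between 46 and 52 when any single library was left out. The median log2 fold change was 1.35 between the deep A libraries and 1.71 between the shallow B libraries. Markers of starved cells moved the other way: 8 of 9 stationary phase and stress genes were lower in Δsds3, with a median log2 fold change of -2.89, and their summed level was 7610 and 9904 CPM (reads scaled to the total on genes), against 64858 and 72324 in wild type. None of the 9 was at 0 reads in any library, and their part in the result was not tested.

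**Figure D3:**
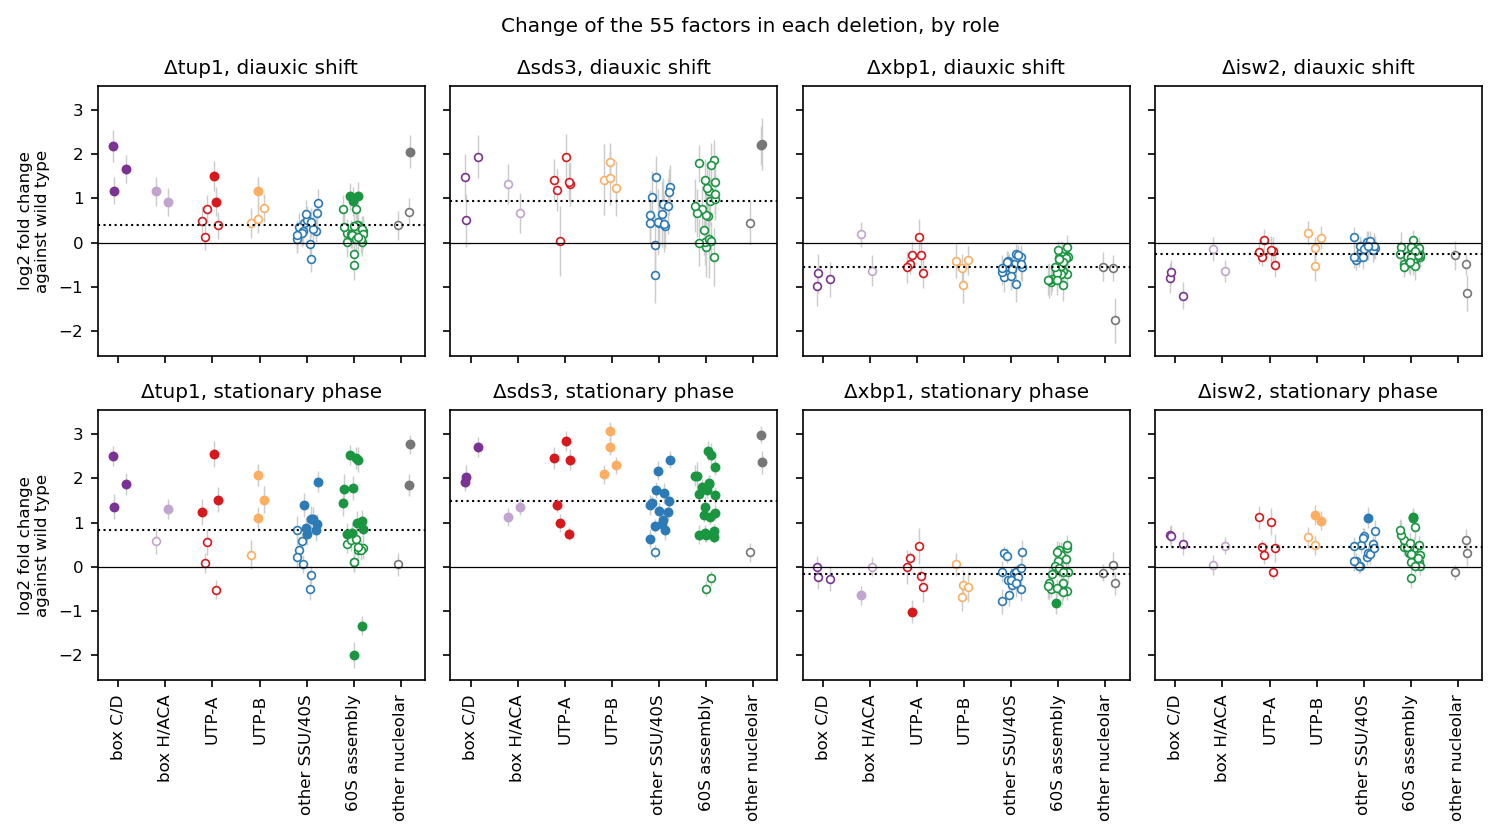
Log2 fold change of each factor against wild type (points, with standard errors as grey bars), by deletion (columns), phase (rows) and role (colours); filled points were called, and the dotted line is the median of the 55. The medians are 0.40, 0.94, -0.54 and -0.25 at diauxic shift and 0.84, 1.48, -0.15 and 0.45 in stationary phase, from left to right.

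In Δtup1 in stationary phase 31 factors were higher than in wild type and 2 were lower. Of 6035 genes tested, 25.7% were higher and 24% lower. The median log2 fold change was 0.84 (1.79-fold), and 24 factors rose at least 2-fold. NSR1 rose most, from 283 and 206 normalised counts in wild type to 1701 and 1601 in Δtup1, a log2 fold change of 2.77 ± 0.22 (adjusted p = 3.57e-06). NOP1 had 1355 and 1085 in Δtup1 and 240 and 190 in wild type, and NOC2 had 536 and 616 against 123 and 87.2. UTP15 had 229 and 344 against 50.8 and 43.6, and MAK5, a helicase of 60S assembly, 806 and 938 against 160 and 139. All 3 listed box C/D proteins rose, and 3 of 4 UTP-B, 3 of 6 UTP-A, 8 of 15 other processome and 11 of 22 60S factors did so. CBF5, NOP56, NOP58, NOP13, UTP13 and NOG1 rose by log2 1.31 to 2.42, and RRP9, RRP12, DBP3 and UTP22 by 0.74 to 0.96.

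2 factors fell in Δtup1, both of 60S assembly. NOP16 had 763 and 1483 normalised counts in Δtup1 and 3773 and 4772 in wild type, and fell by 2.00 on the log2 scale (SE 0.29, adjusted p = 0.000211). NOP8 (YOL144W), a pre-60S protein that binds NIP7, had 258 and 285 against 641 and 726 and fell by 1.33 (SE 0.21, adjusted p = 0.000396). For both genes the Δtup1 libraries lay below both wild type libraries, as for 5 of 55 factors and 38.5% of all genes tested. Both genes were higher in stationary phase than at diauxic shift in wild type. UTP10 had 339 and 395 against 543 and 508 (adjusted p = 0.0599) and NOP14 281 and 368 against 427 and 494 (adjusted p = 0.082). MAK21, NOP7, NOP2, ROK1, RRP5, GAR1 and DBP2 differed by log2 0.06 to 0.58 and were not called. Leaving out 1 library gave 21 (without wild type library B) to 40 called factors (without Δtup1 library A). Taken pair by pair, the median was 0.54 for the A libraries and 1.19 for the B libraries. The summed level of the stationary phase and stress markers was 35948 and 42973 CPM in Δtup1, against 64858 and 72324 in wild type, with 1 of 9 higher, 2 lower and none at 0 reads, and their part was not tested.

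The comparisons of Δtup1 and Δsds3 with wild type used the same wild type libraries. These 2 deletions were therefore also compared directly, with all 4 libraries on 1 scale, a comparison added after these results were seen. Of the 55 factors 27 were higher in Δsds3 than in Δtup1 and 2 were lower, against 28.9% of 6131 genes higher and 28.9% lower. The median log2 difference was 0.58. All 4 listed UTP-B genes and 4 of 6 listed UTP-A genes were higher in Δsds3. NOP8 differed most, with 1640 and 1865 normalised counts in Δsds3 and 413 and 463 in Δtup1, a log2 difference of 2.02 ± 0.17 (adjusted p = 0.000122). DBP6, a helicase of early 60S assembly, had 906 and 763 against 253 and 224, and UTP6 554 and 662 against 127 and 236. MAK21 had 2209 and 2458 against 692 and 822. The 2 factors lower in Δsds3 were MAK5 (909 and 766 against 1292 and 1525) and RRP8 (708 and 697 against 941 and 1449). NOC2 did not differ beyond the spread of its libraries (995 and 1068 against 859 and 1002), with a log2 difference of 0.18 ± 0.17. The stationary phase and stress markers were lower in Δsds3 than in Δtup1 in 9 of 9 genes, and their part was not tested.

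**Figure D4:**
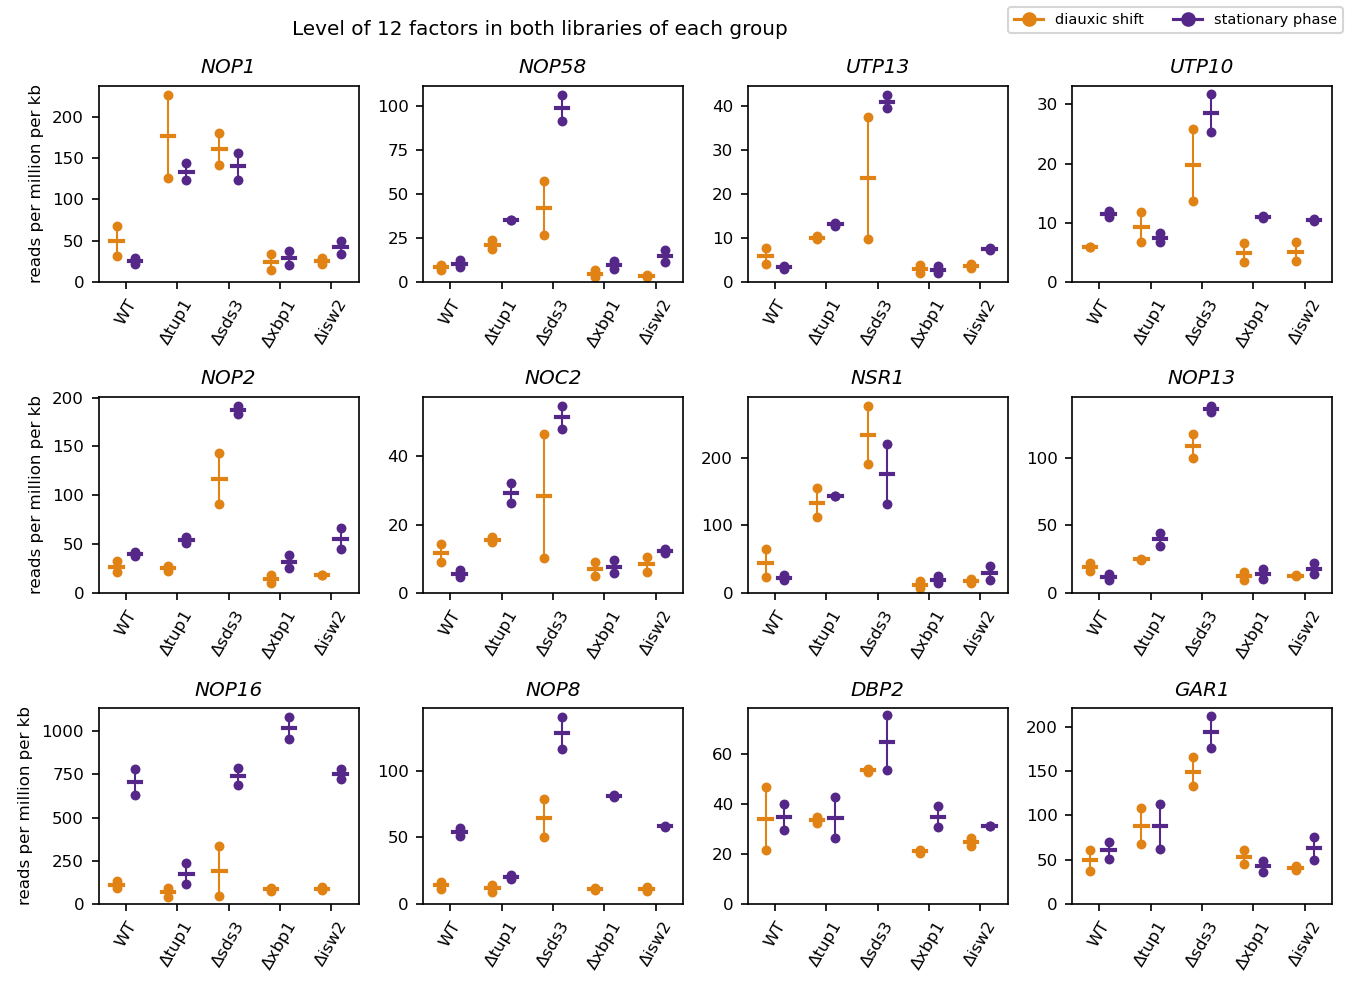
Level in RPKM for 12 factors in both libraries (points, joined by a line; the bar is their mean) of each strain at diauxic shift (orange) and in stationary phase (purple), with axes starting at 0. NOP58, UTP13, NOP2 and NOP13 are highest in Δsds3 in stationary phase, and NOP16 and NOP8 are lower in Δtup1 than in wild type in stationary phase.

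In Δxbp1 in stationary phase 0 factors were higher and 3 were lower, whereas of 5968 genes tested 12.3% were higher and 11.5% lower. The median log2 fold change of the 55 was -0.15. UTP9, a UTP-A subunit, had 84.6 and 58.1 normalised counts in Δxbp1 and 146 and 140 in wild type, and fell by 1.02 (SE 0.26, adjusted p = 0.0121). NOP15, a pre-60S protein, had 144 and 93.0 against 213 and 201, and GAR1 208 and 166 against 343 and 247. NOP1, CBF5, NOP13 and MAK21 were within log2 0.05 of wild type. The count was 1 without Δxbp1 library B and 11 without either wild type library B or Δxbp1 library A, and the sign of the median turned without wild type library A (0.05). The stationary phase and stress markers summed to 36285 and 43463 CPM in Δxbp1, also below wild type, with 3 of 9 lower and none at 0 reads, and their part was not tested. Ribosomal protein genes, a list taken from their RPS and RPL symbols after values had been seen, were lower in 121 of 132 cases in the same libraries, with a median of -1.32. Compared directly with Δxbp1, a comparison also added after seeing the results, Δsds3 had 51 factors higher and 1 lower, against 26.4% of 6033 genes higher and 22.1% lower. The median log2 difference was 1.84, and the factor that was lower was NOP16, with 4655 and 5006 normalised counts in Δsds3 and 7896 and 9606 in Δxbp1.

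In Δisw2 in stationary phase 5 factors were higher and 0 lower, against 1.21% of 5953 genes higher and 0.706% lower. The changes were small and mostly in 1 direction: 52 of 55 log2 fold changes were above 0, with a median of 0.45 (1.37-fold), and 28 had an unadjusted p under 0.05, as did 14.9% of all genes tested. UTP13 had 149 and 144 normalised counts in Δisw2 and 71.2 and 57.7 in wild type, and rose by 1.18 (SE 0.22, adjusted p = 0.0286). NOC2 had 213 and 202 against 114 and 79.4 and rose by 1.12. The other 3, named after their values were seen, were UTP18 (UTP-B), the helicase DBP7 and IMP3 of the U3 snoRNP, which rose by 1.04 to 1.12. UTP8 had 149 and 131 against 79.9 and 50.5 (adjusted p = 0.0595), and MAK21 409 and 272 against 462 and 346. The count depended on single libraries: it was 0 without either Δisw2 library and 25 without wild type library A. It was 2 with no filter on low counts and 2 with all strains of the phase in one fit.

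At diauxic shift 12 factors were higher in Δtup1 and 0 lower, against 13.8% of 6295 genes higher and 6.27% lower, and the median log2 fold change was 0.40. NOP1 had the highest fold change. It had 7746 and 4135 normalised counts in Δtup1 and 1736 and 894 in wild type, and rose by 2.18 (SE 0.36, adjusted p = 0.000117). NSR1 had 6698 and 4671 against 2101 and 858, and NOP58 992 and 1218 against 396 and 302. All 5 listed snoRNP proteins rose, by 0.91 (CBF5) to 2.18. UTP10, UTP13, UTP15, MAK5, NOG1 and NOG2 made up the rest. The lowest were NOP16, with 1021 and 2183 against 2408 and 1843, UTP7 and DBP10, and none of these was called. The count was 5 without wild type library B, and 3 with all strains of the phase in one fit, where 6.21% of genes were higher.

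In Δsds3 at diauxic shift 1 factor was higher and 0 lower, against 1.94% of 6340 genes higher and 0.852% lower. The median log2 fold change was 0.94 and 51 of 55 were above 0, but the 2 Δsds3 libraries gave different pictures. NOP13, the gene that was called, had 2870 and 3737 normalised counts in Δsds3 and 806 and 625 in wild type, and rose by 2.20 (SE 0.44, adjusted p = 0.0462). NSR1 had 4784 and 10634 against 2390 and 960, and UTP15 1255 and 1256 against 440 and 241. UTP20 had 2252 and 619 against 2045 and 1901, and RRP5 4098 and 911 against 2318 and 1750, so that library A lay above wild type and library B below it. With library A alone 44 factors were higher and 0 lower. With library B alone 18 were higher and 6 lower. Without either wild type library 0 were called. With both libraries, DESeq2 called 11 higher (8.04% of genes) and the fit of all strains of the phase 17 higher (13.2% of genes).

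In Δxbp1 at diauxic shift 0 factors were called, against 0.432% of 6243 genes higher and 0.032% lower. The median log2 fold change was -0.54, 53 of 55 were below 0, and 12 had an unadjusted p under 0.05 (7.53% of all genes did), while DESeq2 called 1 lower and edgeR 0. Without wild type library B 6 were lower, and without Δxbp1 library B 3. The deviation lay in the A libraries, whose median difference was -1.05, whereas that of the B libraries was -0.05. NSR1 had 252 and 600 normalised counts in Δxbp1 and 2060 and 844 in wild type, and NOP1 411 and 922 against 1702 and 879. In Δisw2 at diauxic shift 0 factors were called, against 0.064% of 6247 genes higher and 0.032% lower. There the median was -0.25, -0.58 in the A pair and 0.06 in the B pair, with 6 unadjusted p under 0.05 (3.97% of all genes) and 0 calls by DESeq2 or edgeR. Without wild type library B 3 were lower. NOP58 had the lowest value, with 129 and 192 normalised counts against 412 and 318 (log2 -1.20 ± 0.31, adjusted p = 0.657).

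Between the phases, the 55 factors did not move as a group in wild type relative to all genes. In stationary phase 5 were higher than at diauxic shift and 10 were lower, against 12.6% of 6290 genes higher and 13.2% lower, and the median log2 fold change was -0.01. Phase cannot be told apart here from any batch of harvest or sequencing, which the labels do not give. The count was 3 without wild type stationary phase library B, and the median ranged from -0.24 to 0.16 as single libraries were left out. The 10 that fell included UTP8, UTP4 and UTP15 of UTP-A, NOP1, NOC2, NOC4 and NOG1. UTP8 fell from 384 and 263 normalised counts to 138 and 88.3, by 1.52 on the log2 scale (SE 0.32, adjusted p = 0.00576). The 5 that rose were NOP16, NOP8, NOP14, UTP10 and NOP7. NOP16 rose from 1270 and 1013 to 6035 and 7587, by 2.58 (SE 0.24, adjusted p = 5.84e-05), and NOP8 from 331 and 266 to 1025 and 1154. The genes beside NOP16, MNN1 upstream and PMI40 downstream on the opposite strand, had other values. MNN1 had 1036 and 945 at diauxic shift and 1093 and 870 in stationary phase, and PMI40 693 and 1400, then 844 and 567.

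**Figure D5:**
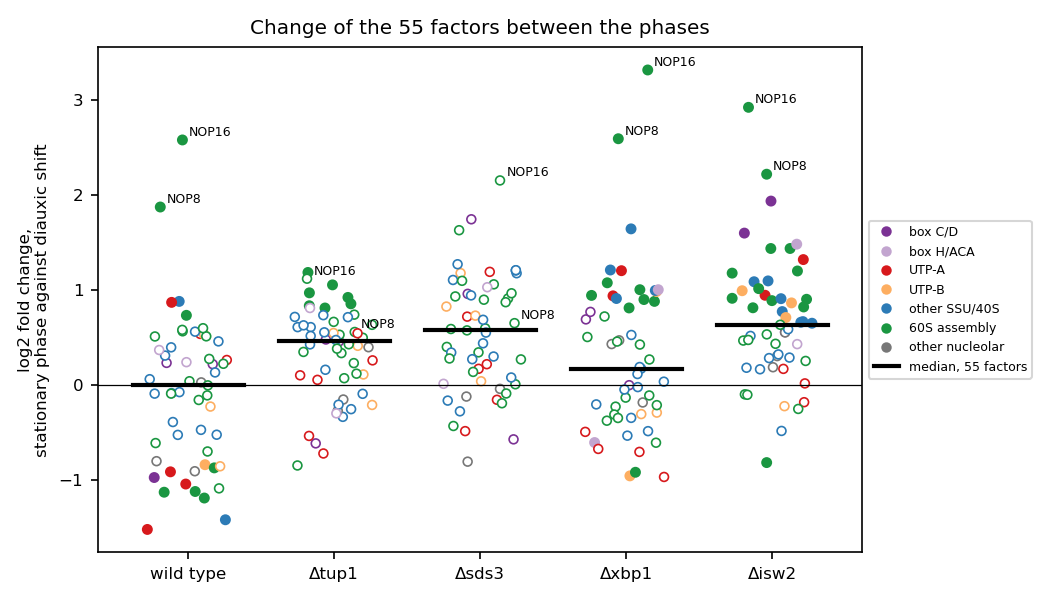
Log2 fold change of each factor between stationary phase and diauxic shift in each strain (points, coloured by role; filled points were called; the bar is the median of the 55). The medians are -0.01, 0.46, 0.57, 0.17 and 0.63 from left to right, and NOP16 is the highest point in wild type, Δsds3, Δxbp1 and Δisw2.

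The deletions differed in their counts. In each deletion both diauxic shift libraries and stationary phase library A carried the same strain number, and stationary phase library B another. Phase is thus partly mixed with strain number in the deletions. In Δtup1 7 were higher and 0 lower (13.8% of 6192 genes higher, 15% lower), with a median of 0.46. The share of factors called higher was thus no larger than that of all genes. All 7 were 60S or pre-60S factors, the role with the most members, and a link to this role was not tested. NOP4 had the highest fold change of the 7 (451 and 789 normalised counts, then 1204 and 1493). The count was 0 without diauxic shift library A or stationary phase library B, and 21 without diauxic shift library B. In Δxbp1 16 were higher and 3 lower (17.6% of 6164 genes higher, 20.6% lower), with a median of 0.17, which was 0.66 in the A libraries and -0.37 in the B libraries. The 3 were UTP21, DBP6 and GAR1. Without stationary phase library A 10 factors were called, and without library B 8. In Δisw2 27 were higher and 1 lower, DBP6 (17.4% of 6143 genes higher, 17.6% lower), with a median of 0.63. Without stationary phase library A 14 were called, and without library B 17. In Δisw2 NOP58 rose from 65.6 and 99.5 to 379 and 254. NOP16 rose in Δxbp1 from 799 and 983 to 7896 and 9606 and in Δisw2 from 895 and 1036 to 7369 and 7139, whereas in Δtup1 it had 543 and 1177, then 1222 and 2411 (adjusted p = 0.0629). In Δsds3 0 factors were called, 0% of 6366 genes were called in either direction, 4 factors (and 6.06% of genes) had an unadjusted p under 0.05 and DESeq2 called 0 factors. Without library A of Δsds3 at diauxic shift 34 were higher and 4 lower. Scaling by library size instead moved the median of all genes by 0.07 in wild type and by 0.13 to 0.38 in the deletions. It gave 19 factors higher in Δtup1, 22 in Δxbp1 and 33 in Δisw2 with 0 lower in each. Calls shift for all genes under this scaling and their share is not given here. These counts are therefore no result about the factors.

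Whether a deletion acted differently in the 2 phases was tested as the difference of its log2 fold changes, which have separate wild type libraries. In every deletion the other strain number of stationary phase library B is mixed with this difference. For Δtup1 the effect was higher in stationary phase for 2 factors and lower for 2, against 3.47% of 6391 genes higher and 5.05% lower. For Δsds3 0 factors were called (0.0464% of 6463 genes higher, 0.0309% lower). There 4 had an unadjusted p under 0.05, against 9.25% of genes. The count of 0 depended on library A of Δsds3 at diauxic shift. For Δxbp1 0 were called (0.236% of 6347 genes higher, 0.268% lower; 7 unadjusted p under 0.05, against 14.7% of genes). For Δisw2 0 were called, as were 0% of 6362 genes in either direction, although all 55 differences were above 0, with a median of 0.67, and 24 had an unadjusted p under 0.05, as did 3.95% of genes. edgeR called 0 factors in these 3 deletions. The count of 4 for Δtup1 was 0 without wild type diauxic shift library A, without wild type stationary phase library B or without Δtup1 stationary phase library B, 1 without wild type stationary phase library A, 2 without Δtup1 stationary phase library A and 9 without wild type diauxic shift library B.

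In Δsds3 in stationary phase 38 of the 41 members with both cores were higher, with a median log2 fold change of 1.36, and 11 of the 12 with the PAC core alone, with a median of 1.84. UTP15, the member with the RRPE core alone, rose by 2.85, and UTP22, with neither, by 1.26. Outside the 55, the 220 other genes with both cores had a median of 0.74 and 57.3% were higher. Of these 48 belong to the other ribosome assembly factors described below, and the remaining 172 had a median of 0.60, with 50.6% higher. The 871 other genes with the PAC core alone had a median of 0.08 and 31.5% were higher. The 268 with the RRPE core alone had 0.15 and 29.1%, and the 4329 with neither had -0.09 and 25.2%. In Δtup1 in stationary phase the 220 had a median of 0.39 and 38.2% were higher. Of the 48 assembly factors among them 58.3% were higher. The remaining 172 genes had a median of 0.33, with 32.6% higher. The 858 other genes with the PAC core alone had a median of 0.01 and 27.5% were higher. The 266 with the RRPE core alone had 0.10 and 25.6%, and the 4302 with neither had -0.02 and 25.0%. Among the members, 20 of the 41 with both cores were higher in Δtup1, with a median of 0.75. With the PAC core alone 9 of 12 were higher, with a median of 1.05. UTP15 rose by 2.55 and UTP22 by 0.74. UTP13 and NOP58, whose windows with both cores are printed above, rose in both deletions, whereas NOP8, which also holds both, fell in Δtup1.

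A list of other ribosome assembly factors held 68 genes that were tested. In stationary phase 53 of 68 were higher and 4 lower in Δsds3 (median 1.26), 33 higher and 7 lower in Δtup1 (median 0.70), 1 higher and 7 lower in Δxbp1 (median -0.28) and 0 higher and 0 lower in Δisw2 (median 0.38, 24 unadjusted p under 0.05, against 14.9% of all genes). Of 8 genes for RNA polymerase I and its factor Rrn3, 7 were higher in Δsds3 and 5 in Δtup1. Ribosomal protein genes differed from the factors in Δtup1, where 10 of 132 were higher and 46 lower in stationary phase, whereas 75 were higher and 3 lower in Δsds3. Of 8 genes for regulators, SFP1, STB3, DOT6, TOD6, SCH9, SIN3, RPD3 and SDS3, 0 were higher and 4 lower in Δsds3 in stationary phase. SDS3 itself was among the 4, and 27.6% of all genes tested were higher and 25.4% lower. The list joins the repressors Dot6, Tod6 and Stb3 with other regulators, and a link of their levels to the factors was not tested. In Δtup1 DOT6 was the one that was higher and TOD6 the one that was lower, against 25.7% and 24% of all genes.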

How the data were processed

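RNA was poly-A selected and sequenced from 20 libraries, 2 for each of 5 strains in 2 phases. Per the methods of the study, 37-cycle paired reads were aligned with bowtie2 to sacCer3, and the submitters' processing notes also name DESeq2. How reads were assigned to genes (program, annotation, strand) is not given in the sources used here. The signal values deposited by the authors are read counts per gene divided by DESeq2 size factors, in 8 tables of 1 deletion and wild type in 1 phase. All values came out as whole reads once the size factors were removed, within a tolerance of 0.05 that widened in proportion to the count for high counts. For the highest counts this check could not fail. The authors' own columns (log2 fold changes, standard errors, Wald statistics, p-values and adjusted p-values) were not used, and 0 columns of samples were left out. Diauxic shift columns are numbered 1 and 2 and stationary phase columns 1 and 3; both pairs are called A and B.

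limma 3.58.1 was used to compare deletion and wild type libraries of 1 table, on log2(normalised count + 1) and in R 4.3.3, for genes that passed the filterByExpr filter of edgeR 4.0.16. All 55 factors passed in every comparison. p-values were adjusted over all genes tested (Benjamini-Hochberg), two-sided, and a call required at least a 1.5-fold change with an adjusted p below 0.05. Comparisons across tables (between phases, of effects between phases, and of 2 deletions) used the recovered reads scaled together by median of ratios. Alternatives were edgeR, DESeq2 1.42.0, TMM or library size scaling, a pseudocount of 8, no filter, adjusted p alone, a joint fit, the replicate number as a block, and leaving out each library. The steps were tested on simulated data. The members and gene lists were chosen with earlier results of these data known. Named genes are fixed representatives of each role, the 3 highest and 3 lowest members of each comparison and members called against the majority; UTP18, DBP7, IMP3, UTP20, NOC4, NOG2 and other members outside this rule were named after their values were seen. Of the windows that results turn on, 1 is not printed here.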

Additional observations from a re-analysis of the deposited data

Results flagged for a closer look

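For 4 factors the effect of deleting TUP1 differed between the phases by a test of the difference itself (limma, adjusted over all genes), given here as the stationary phase log2 fold change minus that at diauxic shift. NOC2 differed by 1.73 ± 0.37 (SE, adjusted p = 0.0168), with log2 fold changes of 0.76 at diauxic shift and 2.46 in stationary phase. MAK5 differed by 1.51 ± 0.38 (adjusted p = 0.0321), from 1.04 to 2.53. UTP10 differed by -1.43 ± 0.38 (adjusted p = 0.0397), from 0.93 to -0.52, so that both Δtup1 libraries lay above wild type at diauxic shift and both lay below it in stationary phase. NOP8 differed by -1.34 ± 0.38 (adjusted p = 0.0482), from 0.02 to -1.33. These 4 are 2 higher and 2 lower of 55, against 3.47% of all genes higher and 5.05% lower, and the count was 0 without wild type library A at diauxic shift, without wild type library B in stationary phase or without Δtup1 library B in stationary phase.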

How the results depend on the processing

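Of 19 comparisons, the number of factors called stayed within 1.5 times under every alternative run in 4: Δsds3 against wild type, Δtup1 and Δxbp1 in stationary phase, and the phase difference of the Δisw2 effect, which was 0. With all groups of a phase in one fit, 3 factors were called in Δtup1 and 17 in Δsds3 at diauxic shift and 2 in Δisw2 in stationary phase. With DESeq2, 11 were called in Δsds3 and 1 in Δxbp1 at diauxic shift and 1 in Δxbp1 in stationary phase. With no filter on low counts, 2 were called in Δisw2 in stationary phase and 4 between the phases in Δtup1. With all 20 libraries in one fit, the counts between the phases were 5 in wild type, 3 in Δsds3, 8 in Δxbp1 and 13 in Δisw2. Library size scaling, which also moved the median of all genes, gave 19 between the phases in Δtup1. The causes were not tested. Leaving out 1 library gave these ranges, where a lone library is assumed to vary like the others. The share of all genes called in such fits is not given here, so the ranges show dependence on single libraries only. At diauxic shift they were 5 to 11 in Δtup1, 0 to 44 in Δsds3, 0 to 6 in Δxbp1 and 0 to 3 in Δisw2. In stationary phase they were 21 to 40, 46 to 52, 1 to 11 and 0 to 25. Between the phases they were 3 to 22 in wild type, 0 to 21 in Δtup1, 0 to 38 in Δsds3, 8 to 24 in Δxbp1 and 14 to 33 in Δisw2. For the phase difference they were 0 to 9, 0 to 29, 0 to 1 and 0 to 0, and for Δsds3 against Δtup1 and Δxbp1 directly 22 to 36 and 50 to 53.

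The libraries share a replicate number across strains, and the labels say no more. The correlation of the deviations of same-numbered libraries was -0.02, 0.25, 0.47 and 0.58 at diauxic shift and 0.20, 0.17, 0.31 and 0.17 in stationary phase, for Δtup1, Δsds3, Δxbp1 and Δisw2. With the replicate block, 12 factors were called in Δsds3 and 1 in Δisw2 at diauxic shift, and 6 in Δxbp1 and 15 in Δisw2 in stationary phase. Between the phases no paired analysis was run. The labels name no culture shared by the phases, and only the A columns keep their number.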

Other observations

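Genes that mark the mating types moved in Δtup1 in stationary phase. There 3 of 4 a-specific and 2 of 3 alpha-specific genes were lower than in wild type, against 24% of 6035 genes tested. Their summed level was 181 and 183 CPM for the a-specific genes, against 484 and 436 in wild type. For the alpha-specific genes it was 11.6 and 16.7 CPM, against 27.7 and 24.9, and MF(ALPHA)2 had only 9 and 1 reads in Δtup1.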
